A study of Homo sapiens with 6 samples.

Results

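The proteasome is the protease complex that degrades ubiquitin-tagged proteins, and NFE2L1 (also called NRF1) is a transcription factor known to drive the genes of its subunits. The genes described here are the 43 genes that the deposited annotation places in the KEGG pathway Proteasome, together with NFE2L1, which makes 44 of the 33900 genes in the table. By their place in the particle, 7 encode 20S alpha subunits, 7 encode constitutive 20S beta subunits, 4 encode the tissue-specific beta subunits of the immunoproteasome and thymoproteasome, 6 encode 19S ATPases, 13 encode 19S non-ATPase subunits, and 6 encode activators, an inhibitor and a maturation factor. PSMA8, the testis form of an alpha subunit, was not analysed here.

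The study examined how Sema3C, a secreted semaphorin, acts on hepatic stellate cells. RNA sequencing was performed on LX-2 cells, an established human hepatic stellate cell line of wild-type genotype grown in DMEM with 10% FBS. In the treated group, 3 samples received recombinant human Sema3C (rhSema3C) at 300 ng/ml for 48 h, and in the control group 3 samples received PBS for the same time. The samples are named as biological replicates without a statement that each was a separate culture, so the p-values below measure the spread between these samples. Total counts on genes ranged from 68267808 to 89245585 per sample, and values are given as CPM (counts scaled to the size of the library after TMM factors, a correction for RNA composition). The TMM factors ran from 0.958 to 0.968 in the PBS samples and from 1.03 to 1.04 in the rhSema3C samples. In bulk RNA, fewer cells of a type and less RNA per cell cannot be told apart.

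The 20S core is a barrel of stacked rings in which the outer alpha rings gate the entry of substrates and the inner beta rings carry the protease sites. The 19S regulatory particle caps the barrel, binds ubiquitin chains, removes them and unfolds the substrate with its ATPase ring. NFE2L1 is made in the membrane of the endoplasmic reticulum, extracted by VCP and normally degraded by the proteasome. NFE2L1 that escapes, after NGLY1 has removed its sugars and DDI2 has cut it, enters the nucleus, pairs with a small MAF protein and binds antioxidant response elements in proteasome gene promoters. This route is best known from cells with inhibited proteasomes.

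The core letters of that element, TGACNNNGC, were searched on both strands of the RefSeq promoter windows (GRCh38.p14), which run from 250 bases before to 50 bases after each start site. A gene was taken to hold a motif if any of its windows did. Of the 43 KEGG members, 38 had a window, and 13 of these (34.2%) held the motif, against 16.1% of the 27305 genes with a window. The motif was present in 2 of the 11 members that rose with rhSema3C, in 6 of the 17 members with a window that fell, and in 5 of the 9 with a window that did not pass the test. The stretches below show the same letters before the start site of a window in a member that rose (PSMA4). They stood there too in members that fell (PSMB3, PSMD3, ADRM1 and PSMD12) and in a member that did not pass the test (PSMC5). PSMA4 and PSMC5 also had windows without the motif. The stretches of PSMA4, ADRM1 and PSMC5 lay inside the gene coordinates of the deposited annotation. Each stretch runs 5′ to 3′ on the gene's own strand, with the motif in capitals, and in PSMC5 the capitals are its reverse complement.
PSMA4 (chr15:78540650-78540678, plus strand): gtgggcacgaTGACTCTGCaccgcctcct
PSMB3 (chr17:38752627-38752655, plus strand): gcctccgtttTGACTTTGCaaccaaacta
PSMD3 (chr17:39980760-39980788, plus strand): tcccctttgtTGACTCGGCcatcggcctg
ADRM1 (chr20:62302749-62302777, plus strand): cgctcccctaTGACACAGCaacaataggg
PSMD12 (chr17:67366724-67366752, minus strand): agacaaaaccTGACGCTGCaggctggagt
PSMC5 (chr17:63827654-63827682, plus strand): gaccggatctGCTGTGTCAgcgccgccct
The windows of NFE2L1 held no TGACNNNGC. The letters CCAAT, the core of the element bound by NF-Y, were also searched on both strands, and matches to both motifs can share bases at their ends. They occurred in 20 of the 38 members with a window (52.6%), against 39.7% of all genes with a window. The 20 included 6 of the 11 members that rose and 9 of the 17 that fell. NFE2L1 held the letters in a window, but not in its other window. Such matches describe letters only and do not show a bound site.

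NFE2L1 transcripts were about doubled by rhSema3C, while the proteasome genes moved in both directions. NFE2L1 (chromosome 17, 48048329 to 48061487 on GRCh38) had 796, 822 and 819 CPM in the PBS samples and 1647, 1495 and 1579 CPM in the rhSema3C samples. Every rhSema3C value lay far above every PBS value. The log2 fold change was 0.95 (SE 0.044), a 1.94-fold rise, with an adjusted p of 2.1e-08 by edgeR's quasi-likelihood test with Benjamini-Hochberg adjustment over the 14178 genes tested. An exact two-sided permutation test of the 3 against 3 samples gave p = 0.1, the smallest that this design allows. Across all alternatives the log2 fold change of NFE2L1 stayed between 0.92 and 1.18. At a fold change above 2 with an unadjusted p below 0.05, the rule of the study's methods, NFE2L1 was not called on the TMM scale, but it lay above that fold in 7 of 17 alternatives, among them library size alone at 1.06, the TPM scale at 1.18 and GC content and length removed at 1.154.

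Of the 43 KEGG members, 42 passed the filter on low values (a mean FPKM of at least 0.5) and were tested. With rhSema3C, 11 members (26.2%) rose and 19 (45.2%) fell, each by edgeR with an adjusted p under 0.05, and 12 did not pass. In the same comparison 62.3% of all genes tested were called, 31.7% higher and 30.6% lower. The treatment groups did not overlap in 12 members that were higher and 21 that were lower, against 34.6% and 33.3% of all genes tested (67.8% in either direction). The median log2 fold change of the members was -0.061, beside 0.024 over all genes tested. None of the 42 members changed by more than 2-fold, although 32 had an unadjusted p below 0.05 by edgeR, and the same count of 0 was obtained with DESeq2 and with limma, whereas 5.54% of all genes passed the 2-fold rule.

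**Figure D1:**
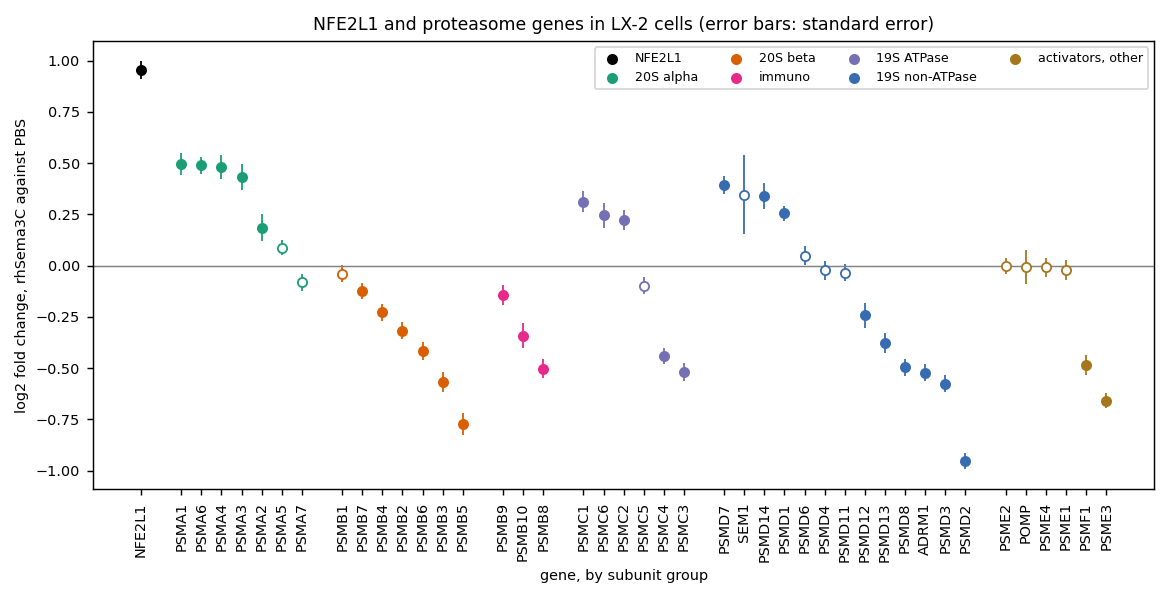
Log2 fold change of NFE2L1 and of the 42 tested proteasome genes, rhSema3C against PBS (vertical axis), by gene within each subunit group (horizontal axis). Points are edgeR estimates on the TMM scale with standard errors (3 samples per group), filled where the adjusted p was below 0.05, and the alpha subunits lie mostly above 0, the beta and immunoproteasome subunits below 0, and the 19S subunits on both sides.

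The scaling between samples shifted these counts. With library size alone the median of all genes moved to 0.13 and the members were split into 14 higher and 16 lower. With FPKM rescaled to TPM, so that every sample sums to the same total, and tested with limma, the median of all genes was 0.23, and 19 members were higher and 12 lower. The median of the alpha subunits lay 0.41 above that of all genes with TMM factors, and that of the beta subunits lay at -0.34. A change of scaling shifts all genes of a sample alike, so these distances hardly move with it by construction. They were 0.13 and -0.31 in a fit with the effects of GC content and transcript length removed.

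Most alpha subunits were higher with rhSema3C. Of the 7 genes, 5 were called higher, none was lower, and the median log2 fold change was 0.43. PSMA1 had the largest change, with 80.7, 71.1 and 73.7 CPM in the PBS samples and 109, 108 and 101 CPM in the rhSema3C samples. Its groups were clearly apart, with a log2 fold change of 0.50 (SE 0.056) and an adjusted p of 1.6e-05. PSMA6 went from 106, 101 and 100.3 CPM to 145, 139.7 and 147 CPM, a log2 fold change of 0.49 (SE 0.042). PSMA4 was at 109, 100.5 and 102 CPM in the PBS samples and at 139, 159.5 and 137 CPM in the rhSema3C samples, a log2 fold change of 0.48 (SE 0.060). PSMA3, whose tail contributes to the gate of the alpha ring, changed by 0.43 (SE 0.062) on the log2 scale, from a mean of 76.2 ± 4.4 to 103 ± 8.1 CPM (SD, n = 3).

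The other three alpha subunits differed from that pattern. PSMA2, with 57.5, 49.3 and 53.7 CPM in the PBS samples and 58.4, 63.9 and 60.3 CPM in the rhSema3C samples, had a narrow gap between its groups and a log2 fold change of 0.19 (adjusted p 0.026 by edgeR). Its call was lost when PBS replicate 2 (log2 fold change 0.13), PBS replicate 3 (0.19), rhSema3C replicate 2 (0.15) or rhSema3C replicate 3 (0.19) was left out. PSMA5 had 115, 118 and 115 CPM against 124, 122 and 124 CPM, a log2 fold change of 0.088 with an adjusted p of 0.064. It was called higher under 6 alternatives, among them library size alone at 0.20 and the TPM scale at 0.31, but lower with GC content and length removed, at -0.22. PSMA7, the alpha subunit with the highest level per length, had 319, 332 and 342 CPM in the PBS samples and 309, 315 and 314 CPM in the rhSema3C samples. It was the only alpha subunit with a negative log2 fold change on the TMM scale, -0.081 (SE 0.041, adjusted p 0.11), and its sign was positive on the TPM scale, at 0.15.

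The beta subunits went the other way. Of the 7 constitutive beta genes, 6 were lower with rhSema3C and none was higher, with a median log2 fold change of -0.32. PSMB5, which carries the chymotrypsin-like protease site and is the target of the inhibitor bortezomib, had 189, 182 and 173 CPM in the PBS samples and 101, 104 and 113 CPM in the rhSema3C samples. The lowest PBS value of PSMB5 was well above the highest rhSema3C value, and the log2 fold change was -0.77 (SE 0.052, adjusted p 3.1e-07), a 1.71-fold fall. PSMB6, which carries the caspase-like site, was lower by a log2 fold change of -0.42 (SE 0.044), with 161, 148 and 148 CPM against 116, 114 and 113 CPM. PSMB7, which carries the trypsin-like site, changed less, with 186, 186.5 and 184 CPM against 167, 168 and 176 CPM and a log2 fold change of -0.13 (adjusted p 0.016).

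With TMM factors all 3 catalytic beta genes were thus called lower by edgeR. The call of PSMB7 was lost with library size alone (-0.017), upper-quartile factors (-0.078), limma on log2(FPKM + 1) (-0.024) and the filter at 5 FPKM (-0.021), and on the TPM scale its sign turned, to 0.10. Among the structural beta subunits, PSMB3 had the highest level per length in the PBS samples and fell from 301.5, 297 and 287 CPM to 189, 197 and 212 CPM, a log2 fold change of -0.57 (SE 0.049, adjusted p 1.9e-06). PSMB2 and PSMB4 were lower by -0.32 and -0.23 on the log2 scale. PSMB1 was the member without a call, with 222.5, 215 and 228 CPM against 219.9, 218 and 209 CPM, a log2 fold change of -0.040 and an adjusted p of 0.42. On the TPM scale 3 of the beta genes were lower and 1 was higher.

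**Figure D2:**
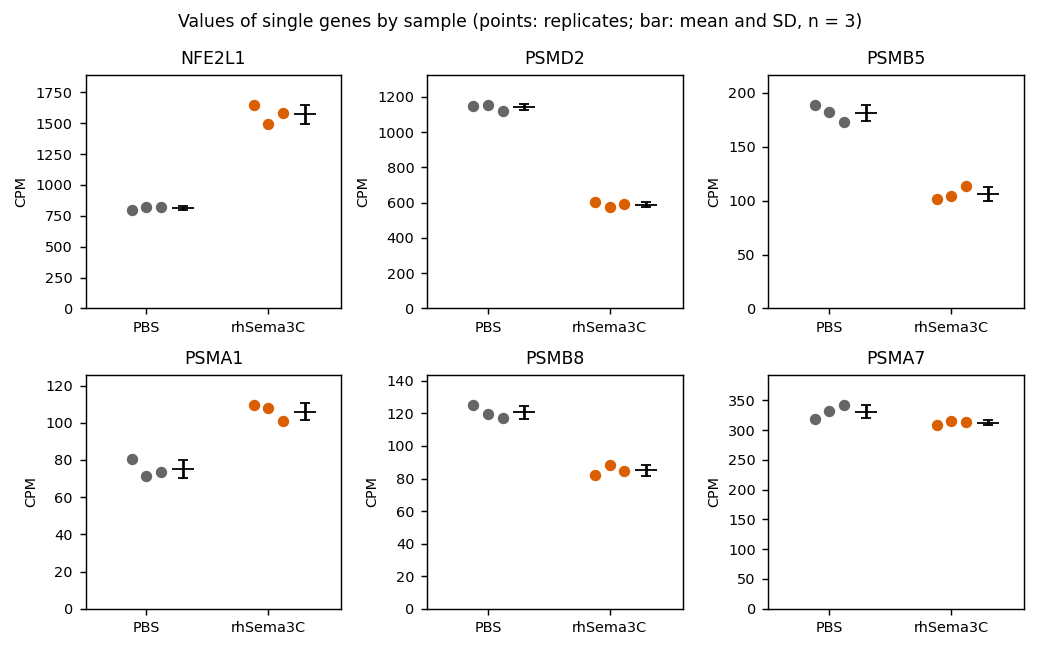
CPM of NFE2L1, PSMD2, PSMB5, PSMA1, PSMB8 and PSMA7 (vertical axes from 0) in the 3 PBS and the 3 rhSema3C samples (horizontal axes), with a bar for the mean and SD. NFE2L1 and PSMA1 are higher in every rhSema3C sample, PSMD2, PSMB5 and PSMB8 are lower in every one, and the PSMA7 groups lie close together at 319 to 342 and 309 to 315 CPM.

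The immunoproteasome subunits take the place of the catalytic beta subunits in cells exposed to interferon and change the peptides that are made for antigen presentation. With TMM factors all 3 immunoproteasome genes were called lower with rhSema3C, and on the TPM scale 1 of the 3 was. PSMB8, which replaces PSMB5, had 125, 119.8 and 117 CPM in the PBS samples and 82.0, 88.5 and 84.8 CPM in the rhSema3C samples, a log2 fold change of -0.50 (SE 0.046, adjusted p 2.9e-06). PSMB10, which replaces PSMB7, had 35.2, 36.4 and 34.8 CPM against 27.8, 27.5 and 28.6 CPM, a log2 fold change of -0.34 (SE 0.061, adjusted p 5.3e-04). The call of PSMB10 was lost on the TPM scale (-0.11) and with GC content and length removed (-0.10). PSMB9, which replaces PSMB6, had 63.9, 64.3 and 61.6 CPM against 58.9, 57.3 and 55.9 CPM, a log2 fold change of -0.14 (adjusted p 0.023). The groups of PSMB9 were close without overlapping, and its call was lost without PBS replicate 1 or 2 or rhSema3C replicate 2 or 3, with log2 fold changes between -0.14 and -0.12, while on the TPM scale the sign turned, to 0.084. PSMB9 kept its call in 6 of 17 alternatives, and library size alone (-0.033) and upper-quartile factors (-0.094) were not among them. PSMB11, the thymoproteasome subunit of thymic epithelium, was near the floor, with counts of 18, 10 and 10 in the PBS samples and 4, 0 and 4 in the rhSema3C samples, and was below the filter of the main fit.

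The share of each immunoproteasome subunit relative to its constitutive partner was compared within samples as a ratio of FPKM (fragments scaled to gene length and library size), with no test. For PSMB8 to PSMB5 the ratio was 0.295, 0.293 and 0.301 in the PBS samples and 0.360, 0.379 and 0.333 in the rhSema3C samples. For PSMB9 to PSMB6 it was 0.172, 0.188 and 0.180 against 0.221, 0.218 and 0.214. Both ratios were higher in every rhSema3C sample, by 0.27 on the log2 scale, the constitutive partner being lower by a larger factor than the immunoproteasome subunit. For PSMB10 to PSMB7 the ratio moved the other way, from 0.208, 0.214 and 0.207 to 0.183, 0.180 and 0.179, a log2 difference of -0.21. The level of a ratio, unlike its change between groups, depends on the gene length used. In CPM per kilobase of the principal transcript, the PBS means were 107 for PSMB8 and 140 for PSMB5. They were 80.9 for PSMB9 and 179 for PSMB6, and 29.1 for PSMB10 and 189 for PSMB7. A ratio within a sample does not depend on the scaling between samples, but it can depend on the GC content and length of the genes. Once the dependence of each sample on GC content and transcript length was taken out, a step chosen after seeing the data, the log2 difference was 0.34 for PSMB8 to PSMB5, 0.039 for PSMB9 to PSMB6 and -0.0098 for PSMB10 to PSMB7, so the last 2 differences were nearly gone.

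The 6 ATPases of the 19S base, which unfold substrates and open the gate of the core, were split. PSMC1, PSMC6 and PSMC2 were higher, PSMC3 and PSMC4 were lower, and PSMC5 did not pass. PSMC3 had the largest change and the highest FPKM of the 6, with 263.5, 264 and 248.9 CPM in the PBS samples and 179.6, 176 and 187 CPM in the rhSema3C samples, a log2 fold change of -0.52 (SE 0.043, adjusted p 1.7e-06). PSMC4 was lower by a log2 fold change of -0.44 (SE 0.039), with groups that did not overlap. Of the ATPases that were higher, PSMC1 had 97.0, 87.9 and 99.2 CPM against 114, 123 and 116 CPM and a log2 fold change of 0.31 (SE 0.053, adjusted p 3.5e-04). PSMC6 and PSMC2 changed by 0.25 and 0.22 on the log2 scale. PSMC5 had 291, 298 and 297.5 CPM against 285, 276 and 266 CPM, a log2 fold change of -0.099 with an adjusted p of 0.055. It was called lower in 4 of 17 alternatives. These were the fit without rhSema3C replicate 1 (-0.13), DESeq2 (-0.11), median-of-ratios factors (-0.11) and GC content and length removed (-0.14).

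Among the 13 non-ATPase genes, 3 were higher, 6 were lower and 4 did not pass, with a median log2 fold change of -0.036. PSMD2, a scaffold subunit of the base that binds ubiquitin-like domains, showed the largest fall of all members. It had 1149.8, 1153 and 1120.4 CPM in the PBS samples and 603, 573 and 591 CPM in the rhSema3C samples, a log2 fold change of -0.95 (SE 0.039, adjusted p 9.0e-09). The fall was 1.94-fold. In CPM per kilobase of the principal transcript, PSMD2 was the highest 19S gene with PBS. With rhSema3C it was at 171 ± 4.4, beside PSMC5 at 175 ± 5.9 (SD, n = 3), which did not differ beyond their spread. In FPKM PSMD2 stayed the highest with rhSema3C, at 120 beside 103 for ADRM1. Leaving out any one sample kept the log2 fold change of PSMD2 between -0.97 and -0.93. The deubiquitinase PSMD14, which releases ubiquitin chains from substrates at the proteasome, and its partner in the lid PSMD7 moved the other way, with log2 fold changes of 0.34 (SE 0.064) and 0.39 (SE 0.045). PSMD14 had 51.6, 54.1 and 57.3 CPM in the PBS samples and 65.7, 74.8 and 65.6 CPM in the rhSema3C samples. PSMD7 had 95.1, 88.9 and 93.2 CPM against 117, 125 and 122 CPM. PSMD1, the larger scaffold of the base, was higher by 0.26 (SE 0.037, adjusted p 1.1e-04).

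Of the ubiquitin receptors of the 19S particle, ADRM1 was lower and PSMD4 did not pass. ADRM1 had 309, 325 and 306 CPM in the PBS samples and 217, 214 and 223 CPM in the rhSema3C samples, a log2 fold change of -0.52 (SE 0.042, adjusted p 1.1e-06). PSMD4 had 157, 174 and 163 CPM against 162, 159 and 165 CPM, with overlapping groups and a log2 fold change of -0.024. The lid subunits PSMD3, PSMD8, PSMD13 and PSMD12 were lower, with log2 fold changes of -0.58, -0.50, -0.38 and -0.24. The call of PSMD12 was lost in 5 of 17 alternatives, among them library size alone at -0.13 and the TPM scale at -0.018. PSMD11 and PSMD6, also of the lid, were at -0.036 and 0.048 and did not pass. SEM1, the smallest subunit, had the lowest level and the widest spread, with 15.7, 9.1 and 17.3 CPM against 15.8, 19.96 and 17.7 CPM, a log2 fold change of 0.35 (SE 0.19) and an adjusted p of 0.14.

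**Figure D3:**
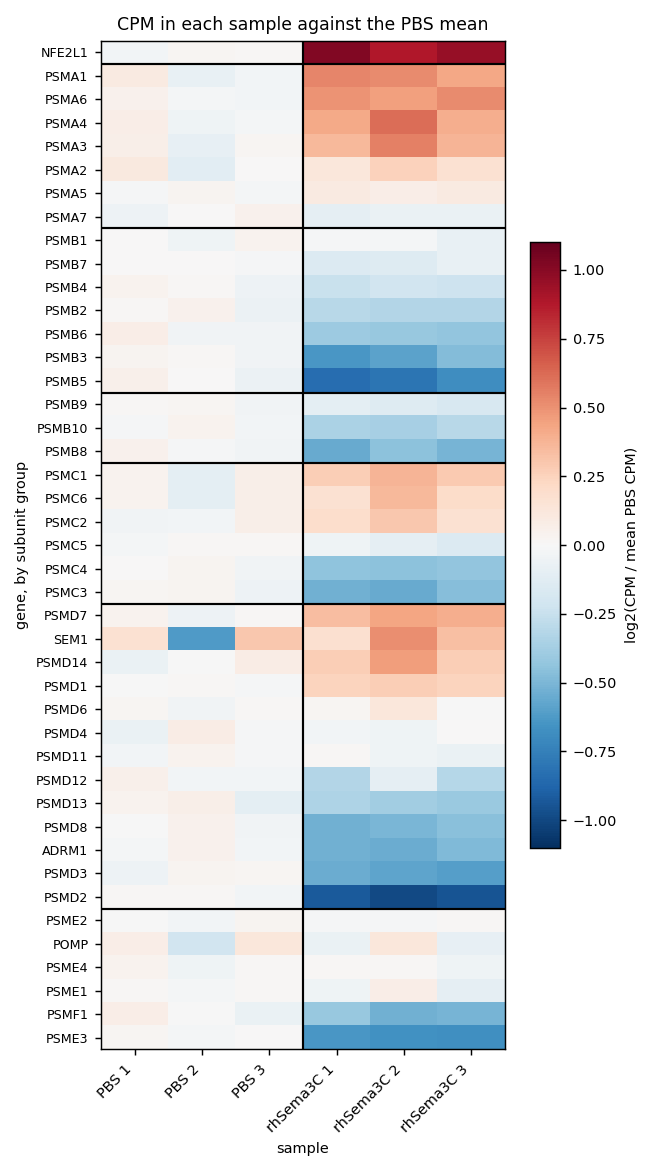
Log2 of the CPM of each gene in each sample over its PBS mean (colour), for NFE2L1 and the 42 tested proteasome genes (rows, by subunit group) in the 3 PBS and 3 rhSema3C samples (columns). The 3 rhSema3C columns resemble one another in nearly every gene, and the PBS columns are pale except in SEM1, which was low in PBS replicate 2.

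Outside the 20S and 19S particles, PSME3 and PSMF1 fell and the other 4 genes did not pass. PSME3, the nuclear activator PA28 gamma, had 338, 328 and 335 CPM in the PBS samples and 214.5, 211 and 209 CPM in the rhSema3C samples, a log2 fold change of -0.66 (SE 0.038, adjusted p 1.2e-07). PSMF1, the proteasome inhibitor PI31, had 262, 249.1 and 238 CPM against 187, 173 and 175 CPM and a log2 fold change of -0.49 (SE 0.049, adjusted p 6.2e-06). The groups were well apart in both. The interferon-inducible activator subunits PSME1 and PSME2 had log2 fold changes of -0.023 and -0.0035 on the TMM scale, and the activator PSME4 was at -0.0089, each with overlapping groups and each positive on the TPM scale, at 0.20, 0.22 and 0.21. POMP, the maturation factor of the core, ranged from 137 to 173 CPM in the PBS samples and from 149 to 173 CPM in the rhSema3C samples. With GC content and length removed, 4 of these 6 genes were called lower and 1 higher. In that fit POMP was at -0.33, PSME4 at -0.30, PSME1 at 0.12 and PSME2 at 0.10.

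Summed over genes, the alpha subunits had 868, 844 and 864 CPM in the PBS samples and 982, 1020.4 and 983 CPM in the rhSema3C samples. The 7 beta subunits summed to 1580.1, 1549 and 1510 CPM against 1216, 1228 and 1248 CPM. The ratio of the beta to the alpha sum was therefore 1.80 ± 0.047 in the PBS samples and 1.24 ± 0.033 in the rhSema3C samples (SD, n = 3). Scaling between samples does not move this ratio, but GC content and length can. The ratio was not formed with those trends removed. In that fit the median log2 fold change of the alpha subunits was 0.11 in place of 0.43. The beta median was -0.33 in place of -0.32. The 13 non-ATPase genes summed to 3182 ± 46.7 CPM and 2346 ± 6.8 CPM, with PSMD2 as the largest contributor, and the 6 ATPases to 1037 ± 2.7 and 944 ± 13.4 CPM. All 43 KEGG members together summed to 7892 ± 68.2 CPM with PBS and to 6537 ± 53.2 CPM with rhSema3C, a change of -17.2% on the TMM scale. Within that sum, PSMD2 went from a mean of 1141 to 589 CPM. The sums were not formed with other scalings, and a change of scaling moves them. The median log2 fold change of the members was -0.061 with TMM factors, 0.048 with library size alone and 0.17 on the TPM scale.

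Although the subunits are built into the particle in equal numbers, their transcript levels were not equal. In the PBS samples the FPKM of the alpha subunits ran from 9.48 for PSMA2 to 177 for PSMA7, a ratio of 18.7. The beta subunits ran from 40.8 for PSMB2 to 237 for PSMB3, a ratio of 5.81. The 19S subunits ran from 1.14 for SEM1 to 216 for PSMD2, a ratio of 189. Taken within each PBS sample, the 19S ratio had an SD of 77.5, with SEM1 between 0.74 and 1.41 FPKM. PSMA7 stood apart from the next alpha subunit, PSMA1 at 23.1 ± 1.6 FPKM (SD, n = 3), whereas PSMA1 and PSMA3, at 23.0 ± 1.43 FPKM, did not differ beyond their spread, and neither did PSMB6 and PSMB7, at 98.8 ± 4.81 and 97.3 ± 0.50 FPKM. The length behind the deposited FPKM was close to the union of all annotated exons of a gene, so a gene with many annotated transcripts gets a lower FPKM. In CPM per kilobase of the principal transcript, the ratio of the highest to the lowest was 14.1 for the alpha subunits, where PSMA4 was then the lowest. It was 5.23 for the beta subunits and 31.0 for the 19S subunits, the last with an SD of 12.7 over the PBS samples. In the PBS samples PSMA7, PSMB3 and PSMD2 were the highest and PSMB2 and SEM1 the lowest by both lengths.

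The members' changes moved with the GC content of their transcripts. The median GC content of the longest GENCODE transcript was 40.7% in the 11 members that were higher, 52.7% in the 19 that were lower and 44.5% in the 12 without a call. Across the 42 members the Spearman correlation of the log2 fold change with GC content was -0.70, and across 14096 genes tested it was -0.48, both over genes that share the same 6 libraries. The alpha subunits had a median GC content of 40.7% and the beta subunits of 49.9%. NFE2L1, at 55.2% GC, rose although genes between 55% and 60% GC had a median log2 fold change of -0.29.

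When the trend of each library with GC content and transcript length was removed, a step chosen after seeing the data, the correlation across members was -0.20 and that across all genes -0.053. NFE2L1 then had a log2 fold change of 1.154. In that fit 10 members were higher and 24 lower. Of the alpha subunits 5 were higher and 1 was lower, with a median of 0.11 in place of 0.43, and all 7 beta subunits were lower, with a median of -0.33. PSMB5 and PSMD2 were at -0.67 and -0.76. PSMA1 was at 0.38, PSMA4 at 0.23, PSMA6 at 0.17 and PSMA3 at 0.096. Of the 19 genes of the 19S particle, 4 were higher and 10 lower, in place of 6 and 8 with TMM factors. PSMC1 was at 0.32 and PSMD7 at 0.26, whereas PSMD1 was at 0.078 and PSMD14 at 0.072. With a call in this fit or in the TMM fit, 8 members changed sign, among them PSMA5 at -0.22, PSMA2 at -0.099 and PSMC2 at -0.085. Whether GC content acted through the libraries or through the cells was not tested.

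Several members share their locus with another expressed gene, and the strand setting of the counting is not given in the sources used here. ADRM1 overlaps LAMA5, which had 75.5% of its counts, PSME3 overlaps BECN1 (51.6%), PSMA3 overlaps PSMA3-AS1 (35.7%), PSMC5 overlaps FTSJ3 (33.9%), PSME2 overlaps the transcript AL136295 (58.5%), PSMB8 and PSMB9 overlap each other on opposite strands, and PSMB9 also overlaps TAP1, which had 228.9% of its counts. PSMA6 overlaps the transcript AL121594 on its own strand (18.7%). Reads of such pairs may be exchanged between the partners. Pseudogene copies took few counts, at most 2.89% of the parent for PSMC1P1 and 1.2% for PSMA6P1.

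The factors that process NFE2L1 or pair with it were split. Of 15 such genes, 6 (40%) were higher and 6 (40%) lower, beside 31.7% and 30.6% of all genes tested, with a median log2 fold change of -0.054. OGT, the glycosyltransferase that modifies NFE2L1 and many other nuclear proteins, showed the largest change of the list, with 219, 201 and 209 CPM in the PBS samples and 526, 529.6 and 518.5 CPM in the rhSema3C samples, a log2 fold change of 1.32 (SE 0.043, adjusted p 1.8e-09). NGLY1, which removes the sugars of NFE2L1, was higher by 0.61 (SE 0.068), with 27.2, 24.9 and 24.7 CPM against 37.1, 40.02 and 39.8 CPM. VCP, the ATPase that extracts it from the membrane, was lower by a log2 fold change of -0.58 (SE 0.041), with 480, 497 and 472 CPM against 330.2, 313 and 326 CPM, and its cofactor NPLOC4 was lower by -0.41. DDI2, the protease that cuts NFE2L1, had 22.9, 22.4 and 24.5 CPM against 22.8, 23.2 and 25.4 CPM, with overlapping groups and a log2 fold change of 0.031 (SE 0.076). FBXW7 and BTRC, adaptors of ubiquitin ligases known to target NFE2L1, were higher by 0.48 and 0.20, and the small MAF partner MAFK was lower by -0.56.

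Among the relatives of NFE2L1, NFE2L2 (NRF2) was higher, with 38.3, 38.8 and 36.6 CPM in the PBS samples and 58.8, 67.3 and 64.5 CPM in the rhSema3C samples, a log2 fold change of 0.74 (SE 0.062, adjusted p 1.6e-06). KEAP1, which targets NFE2L2 for degradation, was lower, with 84.8, 99.9 and 91.1 CPM against 51.1, 49.9 and 52.5 CPM, a log2 fold change of -0.85 (SE 0.061). BACH1, a repressor at the same elements, was higher by 0.90 (SE 0.072), and NFE2L3 by 0.17. NFE2L3 overlaps the abundant HNRNPA2B1 on the opposite strand. NFE2 and BACH2 were below the filter.

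Of the 10 assembly factors, 4 (40%) were higher and 2 (20%) lower, beside 31.7% and 30.6% of all genes tested. The 19S chaperone PSMD10 (gankyrin) was higher by a log2 fold change of 0.61 (SE 0.065), with 31.0, 28.3 and 31.1 CPM against 47.1, 47.1 and 44.2 CPM, and ECPAS, which tethers the core to the cap, by 0.48 (SE 0.044). The chaperone PSMG2 of the alpha ring was higher by 0.33, while its partner PSMG1 did not pass at 0.044. PSMD9 and AKIRIN2, a factor for the nuclear import of proteasomes, were lower by -0.29 and -0.23.

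The list of genes for the induction of the immunoproteasome and for peptide loading held 9 genes. Of these, 3 (33.3%) were higher and 4 (44.4%) lower, beside 31.7% and 30.6% of all genes tested. B2M, the light chain of MHC class I, was higher, with 1522, 1531.5 and 1593 CPM in the PBS samples and 2483, 2523 and 2443 CPM in the rhSema3C samples, a log2 fold change of 0.68 (SE 0.037, adjusted p 6.6e-08). IFNGR1 and IRF1 were higher by 0.80 and 0.41. The class I transactivator NLRC5 and the peptide transporter subunit TAP2 were lower by -0.59 and -0.49, and TAP1 and TAPBP by -0.16 and -0.23, both of which changed sign under at least 1 alternative.

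The identity of the cells was checked against marker genes. Of 9 stellate cell or fibroblast markers, 7 had a mean FPKM of at least 0.5. The summed FPKM of the list was 1172 to 1229 in the PBS samples and 924 to 984 in the rhSema3C samples. Most of this sum was VIM, with a mean of 1035 FPKM in the PBS samples and 834 FPKM in the rhSema3C samples. COL1A1 came next, with means of 96.0 and 60.1 FPKM, while COL1A2 was at 0.7 to 1.7 CPM and DES near 0. With TMM factors, 5 of the 7 markers tested were called lower by edgeR, none was higher and 2 did not pass. The median log2 fold change of these 7 was -0.41. Hepatocyte markers summed to 2.63 to 3.15 and 3.52 to 4.14 FPKM, nearly all of it SERPINA1, with ALB, APOA1, APOB and AFP near 0. Leukocyte markers summed to 94.9 to 104 and 67.3 to 72.9 FPKM, carried by CD68 and CD14, with PTPRC and CD3E near 0. Endothelial markers summed to at most 1.67 FPKM and epithelial markers to at most 0.619 FPKM. The part of the change in stellate cell markers in the changes of the proteasome genes was not tested.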

How the data were processed

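RNA-seq of 6 LX-2 samples (3 rhSema3C, 3 PBS; groups from the sample labels) was analysed. The authors deposited 1 table of 33900 genes that pairs a whole-number count per gene and sample, without normalisation, with an FPKM value scaled to gene length and library size. The methods name Cufflinks and cuffmerge for differential expression, and the aligner, counter, strand setting and genome build are not given in the sources used here. Gene coordinates lie on GRCh38. Every column of sample values was used.

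Members were the genes with a KEGG entry for the proteasome and NFE2L1. The members and the gene lists were chosen with earlier results of these data known. Counts were tested with edgeR 4.0.16 (R 4.3.3; TMM factors, quasi-likelihood test, group as the only term) for 14178 genes whose FPKM averaged 0.5 or more over the samples, with Benjamini-Hochberg adjustment over all of them. A call is an adjusted p below 0.05. No molecular identifiers were used, so counts are not counted molecules. Examples named in full were the member of each group with the largest change, the one with the highest level and those that moved against the group, and further members and list genes were named beside them. Between genes, levels were compared as FPKM or as CPM per kilobase of the principal transcript of GENCODE release 29.

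Alternatives were other scalings, DESeq2 1.42.0, limma 3.58.1 on log2(FPKM + 1), log2(FPKM + 0.1) and log2(TPM + 1), other filters, a block for the replicate number, and fits without 1 of the samples. Removal of GC content and length trends with splines of 4 degrees of freedom and the principal transcript length were added after seeing the data. The tests were tried on simulated counts. Counts of replicates differed beyond sampling noise (chi-square over its degrees of freedom 13.5 to 22.1), so no sample is a copy of another. Motifs were searched in RefSeq promoter windows, of which 9 members had more than 1. A few genes of the lists are not reported singly. Plots used matplotlib 3.10.9.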

Additional observations from a re-analysis of the deposited data

How the results depend on the processing

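Of the 42 tested members, 19 held a call and its direction in every alternative fit at an adjusted p below 0.05, and NFE2L1 was called higher in each. Over all genes, 6897 were higher and 2325 lower on the TPM scale, and 2630 and 2602 where only genes averaging 5 FPKM or more were used, against 4490 and 4339. Among members, 19 were higher and 12 lower on the TPM scale, and 0 and 0 passed the 2-fold rule. The median log2 fold change of the members was -0.061, and it was 0.048 with library size alone, -0.013 with upper-quartile factors, 0.042 with limma on log2(FPKM + 1) and on log2(FPKM + 0.1), 0.17 on the TPM scale, -0.094 without a filter, 0.024 with the filter at 5 FPKM and -0.22 with GC content and length removed. Leaving out single samples gave medians of -0.086 to -0.050, 10 to 11 members higher and 18 to 20 lower. Level ratios per principal kilobase were 14.1, 5.23 and 31.0. With GC content and length removed, the log2 difference was 0.039 for PSMB9 to PSMB6 and -0.0098 for PSMB10 to PSMB7.

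On the TPM scale 11 members changed sign. With a call in either fit these were PSMB1 (0.19), PSME4 (0.21), PSME1 (0.20), PSME2 (0.22), PSMD11 (0.19), PSMB7 (0.10), PSMD4 (0.20) and PSMB9 (0.084), and without one PSMA7 (0.15), PSMC5 (0.13) and POMP (0.22). PSME2 was at 0.11 with library size alone and at 0.10 with the filter at 5 FPKM. With GC content and length removed, PSMC6 was at -0.063, PSME2 at 0.10, PSMA7 at 0.11, PSMA2 at -0.099, PSMA5 at -0.22, PSMD4 at 0.11, PSMC2 at -0.085 and PSMD6 at -0.27. The cause was not tested. SEM1 lay under the filter at 5 FPKM.

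The replicate numbers did not pair the samples, since the residuals of same-numbered samples correlated at -0.077, -0.046 and -0.036. With the replicate block, 10 members were higher and 17 lower, NFE2L1 was at 0.95, and PSMA2, PSMB7 and PSMB9 were not called. PSMB11, with its low counts, was tested only in the fit without a filter, where it was at -2.39 and was not called.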

Other observations

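Genes upstream of the proteasome in the ubiquitin system moved in both directions. UBA1, the main enzyme that activates ubiquitin, was lower with rhSema3C, with 623, 635 and 613 CPM in the PBS samples and 434, 413 and 419 CPM in the rhSema3C samples, a log2 fold change of -0.56 (SE 0.040, adjusted p 4.4e-07 by edgeR). UBA6, the other activating enzyme, was higher by 0.44 (SE 0.091), with 71.6, 57.5 and 71.6 CPM against 81.0, 99.5 and 91.8 CPM. Of the genes that encode ubiquitin, RPS27A was higher by 0.41 and UBB was lower by -0.23. Reads of these near-identical ubiquitin repeats may be shared between genes.

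Of 11 receptors, shuttles and enzymes that work at the proteasome, 3 (27.3%) were higher and 4 (36.4%) lower, near the 31.7% and 30.6% of all genes tested. RAD23B, a shuttle for ubiquitin-tagged proteins, was higher by a log2 fold change of 0.39 (SE 0.045). SQSTM1 (p62), which carries ubiquitin-tagged cargo to autophagy, had 1711, 1787 and 1662 CPM in the PBS samples and 1332, 1242 and 1296 CPM in the rhSema3C samples, a log2 fold change of -0.42 (SE 0.043, adjusted p 7.7e-06). UBQLN2 and the ligase UBE3C were lower by -0.26 and -0.24. The proteasome-bound deubiquitinases USP14 and UCHL5 did not pass, at -0.048 and 0.17.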
